A study of Mus musculus with 2 samples.

Results

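Chromatin-modifying enzymes set, remove or act on the marks of DNA and histones, and their transcripts were followed here in CD8+ T cells that overexpressed Eomes, a T-box transcription factor. Genes were taken by symbol from 9 families: the histone deacetylases (*Hdac*), lysine demethylases (*Kdm*), lysine methyltransferases (*Kmt*, *Setd*, *Ezh*), DNA methyltransferases (*Dnmt*), TET dioxygenases (*Tet*) and the SMARC and CHD chromatin remodelers. A minimum FPKM of 1 in either library was required, and 66 of 74 symbols with such a name passed it, among 14732 symbols listed for the whole series. FPKM counts fragments per kilobase of transcript, scaled to the depth of the library. All 66 genes were at or above an FPKM of 1 in both libraries, so none entered through the level of a single condition. That level is what chose the genes, and it is given here as a description.

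The cells came from C57BL/6 mice aged 6 to 8 weeks that carry the OT-I transgene, a T cell receptor for the ovalbumin peptide SIINFEKL. CD8+ cells of spleen and lymph nodes were first stimulated for 24 h (2.5 ng/mL of the peptide, 10 U/mL of IL-2). Transduction was with the retroviral vector RVKM, which also encodes human CD2, either empty (control) or with Eomes. Human CD2+ cells were sorted after 48 h and received peptide and IL-2 at the same doses for 3 days at 40000 cells per well. Both groups thus share the receptor, the vector and both rounds of stimulation. They differ in the Eomes insert, whose expression from the vector makes the comparison one of overexpression and not of the endogenous gene.

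Deacetylases remove acetyl groups from histone tails, a step linked to lower transcription. Methylation of histone lysines marks active genes at H3K4 and H3K36 and repressed genes at H3K9 and H3K27, and dedicated demethylases reverse it. DNMT enzymes methylate cytosine, TET enzymes oxidize the methyl group, and SMARC and CHD proteins use ATP to move nucleosomes or serve in the complexes that do. In CD8+ T cells such enzymes take part in the closing and opening of genes during effector, memory and exhausted differentiation.

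Each condition is represented by 1 library, and without replicates the differences could not be tested. *Eomes* had an FPKM of 2.47 in control cells and 129.6 in Eomes-overexpressing cells. Of 8 markers of cytotoxic CD8+ T cells, 7 were listed in each library, *Trac* being the other. Their levels differed: *Cd8a* was at 181.8 and 99.1, *Cd8b1*, *Cd3d*, *Cd3e* and *Cd3g* were also lower in Eomes-overexpressing cells, and *Prf1* was at 709.1 and 940.3. The part of these differences in the results was not tested. The summed FPKM of the CD4+ T cell, B cell and myeloid markers was between 0.12 and 2.87 in each library, and of the NK cell markers 0.31 and 5.74, all of it *Klrb1c*. *Ncr1*, which defines NK cells, was not listed, and the part of NK cells in the results was not tested. Erythroid markers summed to 0.19 in control cells and were not listed in Eomes-overexpressing cells. In such bulk samples, fewer cells of a type and less RNA per cell cannot be told apart. From the spacing of low FPKM values the depth was about 19500000 reads for the control and 20000000 for the Eomes-overexpressing library.

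None of the 66 chromatin enzyme genes differed by more than 1.5-fold between the libraries. Over all 9925 genes with an FPKM of at least 1 in either library, called expressed genes below, the share beyond 1.5-fold was 7.65%, with 2.46% higher and 5.19% lower in Eomes-overexpressing cells. Log2 ratios, Eomes-overexpressing over control throughout, ran from -0.51 for *Hdac5* to 0.46 for *Kdm6a*, and 1.5-fold corresponds to 0.58. The median log2 ratio of the 66 genes was 0.04, with 37 above and 29 below 0, beside -0.0037 over all expressed genes. Their SD was 0.20 on the log2 scale, and 0.40 over all expressed genes, whose ratios ran from -8.38 to 5.71. The highest of these was that of *Eomes* itself, and the lowest rests on a floor of 0.01 in place of a missing value. Both are part of the SD over all expressed genes, whereas all 66 genes were listed in both libraries. The quartiles were closer, at -0.09 and 0.16 for the 66 genes and -0.15 and 0.16 over all expressed genes. The summed FPKM of the 66 genes was 1572 in control cells and 1561 in Eomes-overexpressing cells, a difference of -0.73%. Over all expressed genes the summed FPKM differed by -2.17%.

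**Figure D1:**
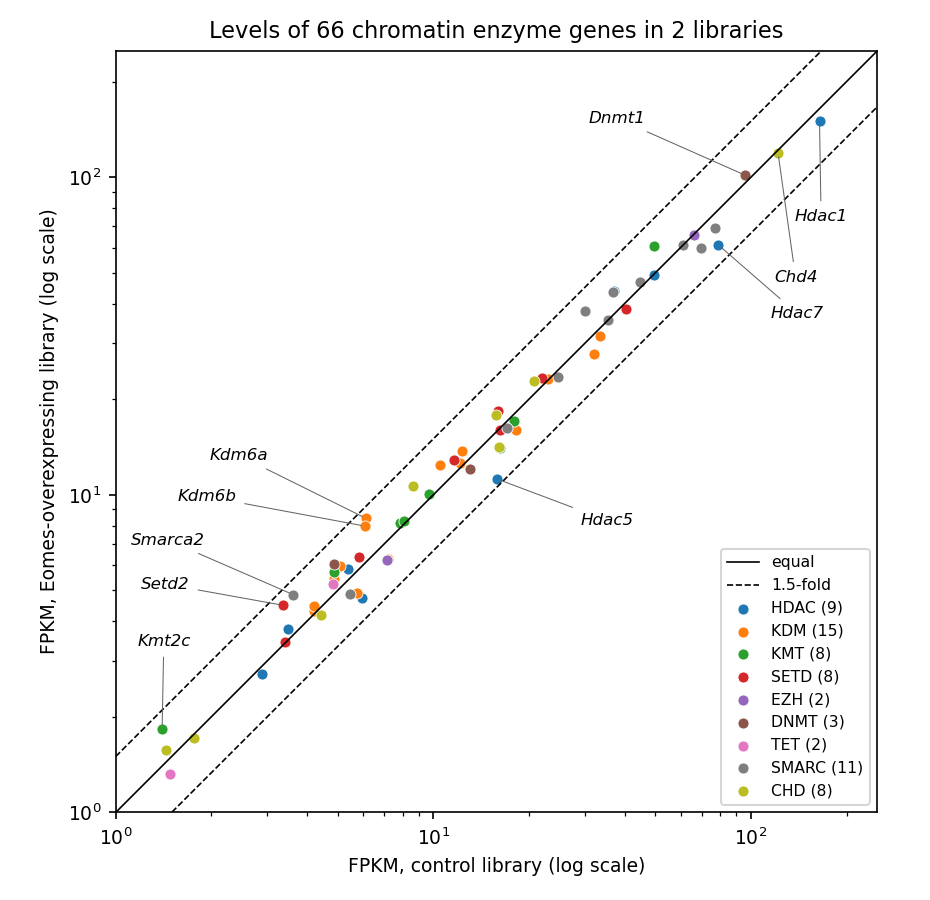
FPKM of each of the 66 genes in the control library (x axis, log scale) and the Eomes-overexpressing library (y axis, log scale), 1 point per gene, coloured by family with the number of genes in brackets. The solid line marks equal levels and the dashed lines 1.5-fold, and every point lies between the dashed lines.

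The spread of log2 ratios depends on abundance, so the families were also read by level. At a mean FPKM of 1 to 5, 16.9% of 2414 expressed genes were beyond 1.5-fold, and the 12 chromatin enzyme genes at this level ran from -0.17 to 0.42. At 5 to 20 the share was 5.09% of 3555 genes, and the 32 enzyme genes ran from -0.51 to 0.46. At 20 to 100 it was 2.25% of 2889 genes, and the 20 enzyme genes ran from -0.36 to 0.34. Only *Hdac1* and *Chd4* lay above a mean FPKM of 100, where 1.32% of 910 genes were beyond 1.5-fold.

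Counting error was read from approximated reads, that is, FPKM times the length of a reference transcript and the depth. Intervals are exact binomial (Clopper-Pearson, 95%). They hold counting error alone and speak of these libraries rather than of the conditions. For 62 of the 66 genes (93.9%) the whole interval lay within 1.5-fold, as it did for 80.3% of 9899 expressed genes with a length. Approximated reads rise with length, and the enzyme transcripts are longer, as given below. Shares of intervals are thus not matched for reads. The intervals of *Hdac5*, *Hdac8*, *Kdm6a* and *Smarca2* reached 1.5-fold. The interval lay above 0 for 23 genes (34.8%) and below 0 for 13 (19.7%), beside 26.4% and 26.1% of the expressed genes. Together these were 54.5% of the enzyme genes and 52.5% of the expressed genes, so the share with an interval off 0 was near the background.

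**Figure D2:**
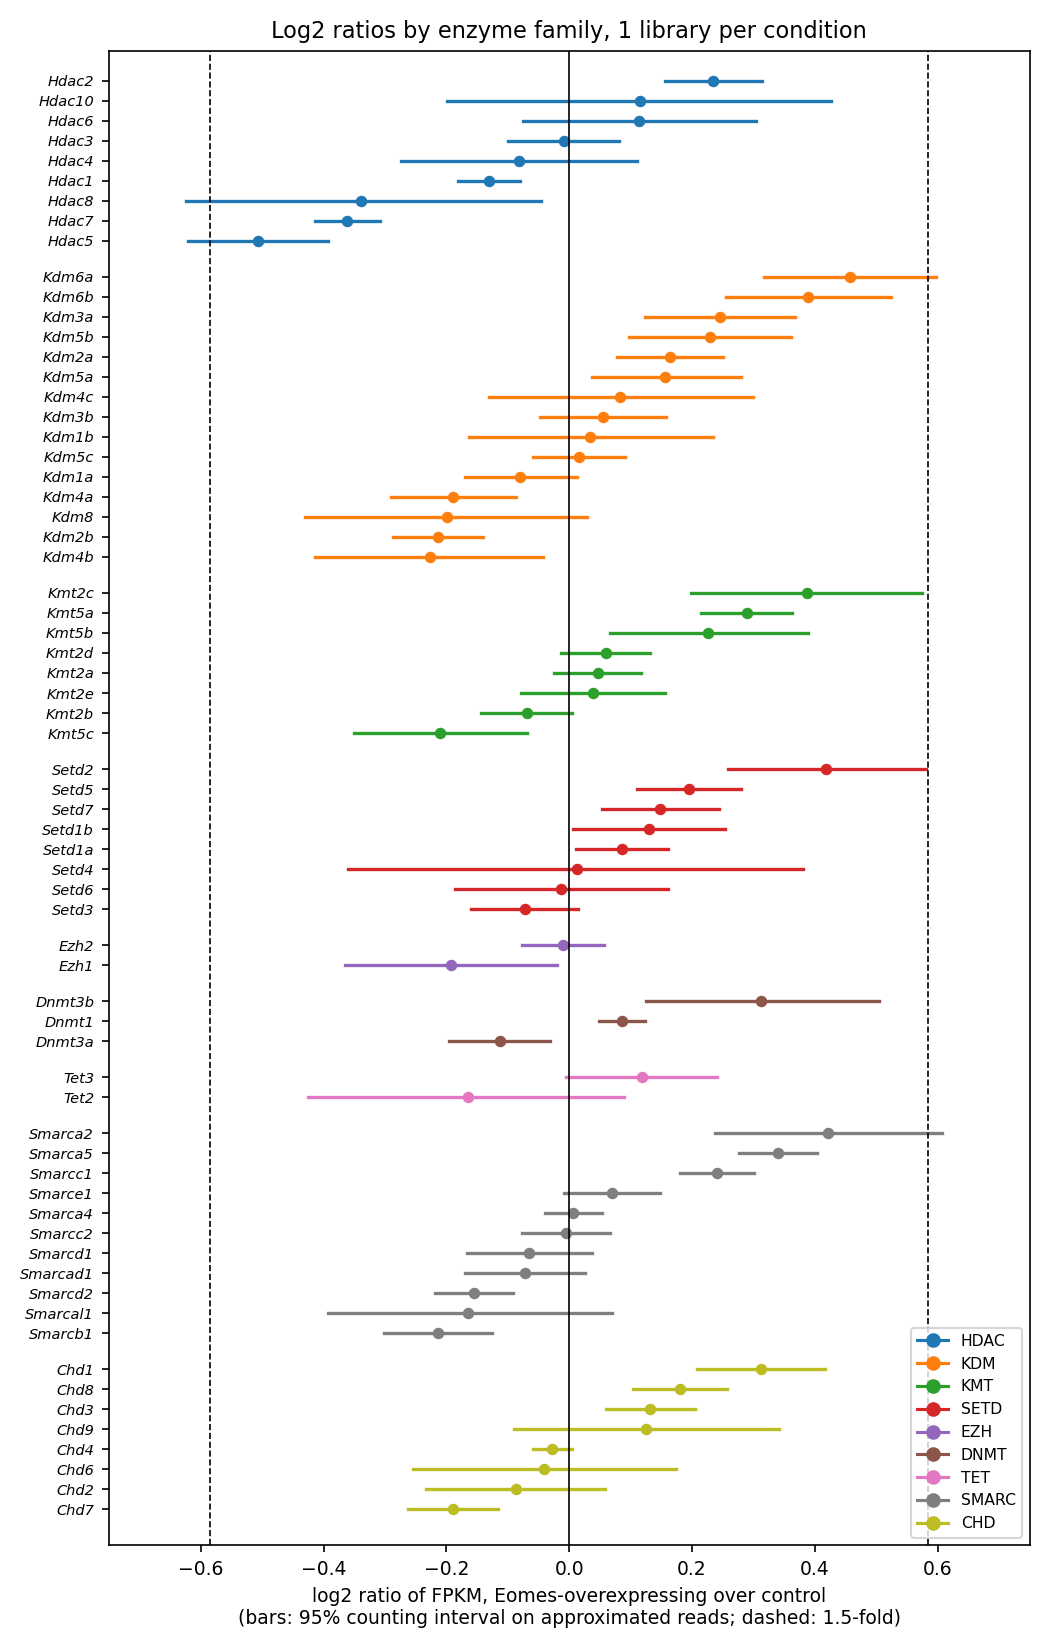
Log2 ratio of FPKM, Eomes-overexpressing over control (x axis), for each of the 66 genes (y axis), grouped and coloured by family and ordered by ratio within a family. Points are log2 ratios, bars are 95% counting intervals on approximated reads, and dashed lines mark 1.5-fold. The 4 bars that cross a dashed line belong to *Hdac5*, *Hdac8*, *Kdm6a* and *Smarca2*.

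A lower bound of 0.32 on the log2 scale was passed by 9 of the 66 genes (13.6%), and by 22.7% of the expressed genes, with 10.7% higher and 12% lower. Higher in Eomes-overexpressing cells were *Kdm6a*, *Smarca2*, *Setd2*, *Kdm6b*, *Kmt2c* and *Smarca5* (9.09% of the genes). Lower were *Hdac5*, *Hdac7* and *Hdac8* (4.55%). The 3 lower genes are thus deacetylases, and the 6 higher genes are 2 H3K27 demethylases, 2 methyltransferases and 2 remodeler ATPases. Both shares were below those of all expressed genes. After GC centring, described next, 4 genes passed the bound upward (6.05% of the expressed genes did) and 2 downward (11.7%). These were *Kdm6b*, *Smarca2*, *Dnmt3b* and *Kmt2c*, and *Hdac5* and *Hdac8*.

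Log2 ratios in these libraries fall with the GC content of the transcript, and the GC content of the enzyme genes was therefore read beside their ratios. Spearman's rho between log2 ratio and GC content was -0.44 across 9899 expressed genes and -0.39 across the 66 enzyme genes, a description across genes that share the same 2 libraries. In the 22 enzyme genes with the lowest GC content (40.7% to 48.4%) the median log2 ratio was 0.16, with 17 above and 5 below 0. In the middle 22 it was -0.02, with 10 above and 12 below 0. In the 22 with the highest (53.6% to 59.99%) it was -0.01, again with 10 above and 12 below 0, so the ratios were not lower in the highest than in the middle group. Length went the other way, with a rho of 0.33 across the enzyme genes and 0.23 across the expressed genes. GC content and length were themselves related, with a rho of -0.21 and -0.28, respectively. The median transcript length of the enzyme genes was 5896 bases against 3017 over the expressed genes. The part of GC content in the ratios of single genes was not tested. Instead, a GC-centred ratio is given beside some of them, from which the median of expressed genes with similar GC content was subtracted. Centring moved 18 of the 66 ratios out of their counting intervals, and some of these are printed below without the centred value. On the GC-centred scale the median of the KDM genes went from 0.05 to -0.02 (7 above and 8 below 0). That of the SMARC genes went from -0.01 to 0.10 (7 above and 4 below 0). For the other families the GC-centred medians were -0.02 (HDAC), 0.12 (KMT), 0.14 (SETD), -0.12 (EZH), 0.18 (DNMT), -0.03 (TET) and 0.03 (CHD).

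*Kdm6b* and *Hdac5*, of like GC content (59.6% and 58.8%), had log2 ratios of 0.39 and -0.51. The AT-rich *Kdm6a* (42.5%) had the highest ratio of the 66 genes, 0.46. These genes were chosen after their ratios were seen, and the part of GC content was not tested. For *Kdm6a*, *Kdm6b* and *Hdac5*, the in-frame stretch of 120 bases whose GC content is closest to that of the whole coding sequence is shown, from the longest protein-coding GENCODE vM21 transcript, with G and C in capitals. The stretches hold 53, 74 and 73 such letters, and begin at coding bases 208, 124 and 4, respectively.
Kdm6a: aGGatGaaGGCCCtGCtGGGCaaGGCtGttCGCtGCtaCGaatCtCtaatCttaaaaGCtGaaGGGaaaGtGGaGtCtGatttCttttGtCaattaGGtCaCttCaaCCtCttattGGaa
Kdm6b: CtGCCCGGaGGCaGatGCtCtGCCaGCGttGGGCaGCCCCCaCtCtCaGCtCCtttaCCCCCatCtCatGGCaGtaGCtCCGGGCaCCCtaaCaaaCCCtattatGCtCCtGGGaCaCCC
Hdac5: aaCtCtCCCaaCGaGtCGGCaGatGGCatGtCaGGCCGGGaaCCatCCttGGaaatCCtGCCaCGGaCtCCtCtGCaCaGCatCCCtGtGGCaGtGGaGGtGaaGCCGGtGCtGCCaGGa
*Kdm6a* is the AT-rich and *Kdm6b* the GC-rich member of the same demethylase pair, while *Hdac5* has a composition close to that of *Kdm6b* and the opposite direction of its ratio.

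**Figure D3:**
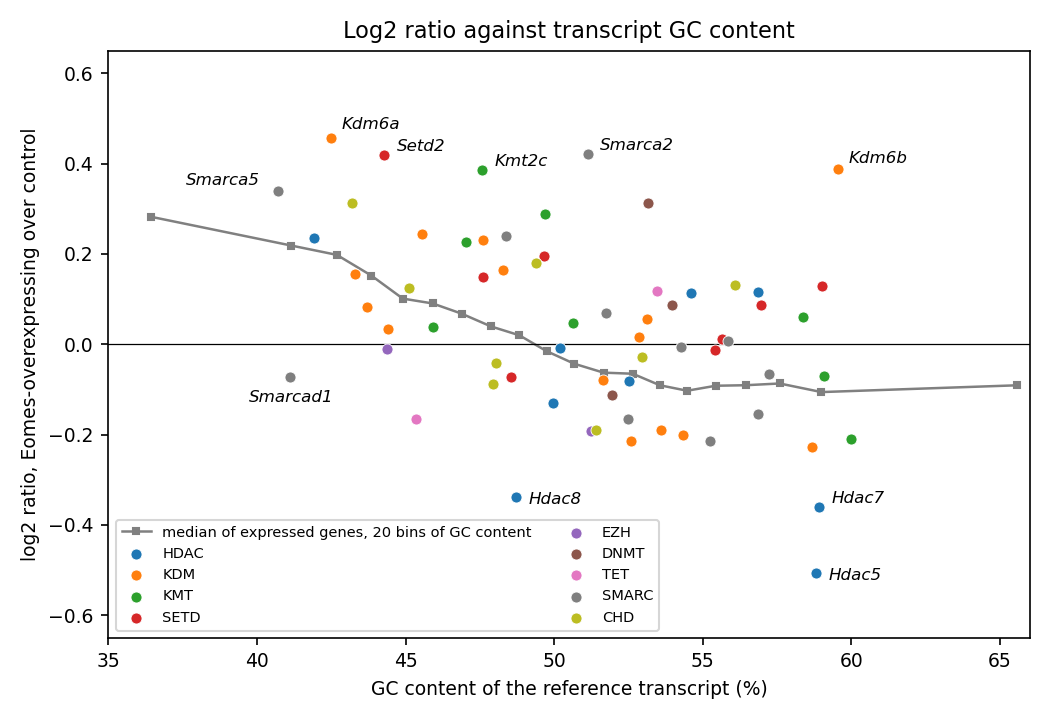
Log2 ratio, Eomes-overexpressing over control (y axis), against GC content of the reference transcript in percent (x axis) for the 66 genes, coloured by family. Grey squares joined by a line are medians of all expressed genes in 20 bins of GC content. *Smarca5* lies close to the grey line for its GC content, whereas *Kdm6b*, *Hdac5*, *Hdac7* and *Hdac8* lie away from it.

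Among the 9 deacetylase genes, 3 had a log2 ratio above and 6 below 0, with a median of -0.08. After GC centring 4 were above and 5 below 0, with a median of -0.02. Their summed FPKM was 363.5 in control cells and 332.7 in Eomes-overexpressing cells, the largest decrease of the 9 families in percent (-8.49%). That sum is set largely by the most abundant genes, *Hdac1* and *Hdac7*, which were both lower, and is not a decrease shared by all 9. Class IIa deacetylases, which shuttle between cytoplasm and nucleus in response to signaling and repress transcription through their partners, include *Hdac4*, *Hdac5* and *Hdac7*. *Hdac5*, on chromosome 11 from 102194432 to 102230166 of mm10, had an FPKM of 15.9 in control cells and 11.2 in Eomes-overexpressing cells. Its log2 ratio was -0.51 (counting interval -0.62 to -0.39) and -0.40 after GC centring, at rank 9280 of 9925 expressed genes from the highest ratio down. *Hdac7*, on chromosome 15 from 97792664 to 97844502, is the class IIa member best known from T cells and was the most abundant here. Its FPKM was 78.8 and 61.3, a log2 ratio of -0.36 (-0.41 to -0.31), which was -0.26 after GC centring. *Hdac4* had a low level in both libraries, with an FPKM of 2.89 and 2.73, and its interval spanned 0 (-0.27 to 0.11). *Hdac9*, of the same class, was under the minimum, at 0.01 and 0.02. The summed FPKM of *Hdac4*, *Hdac5* and *Hdac7* was 97.6 in control cells and 75.2 in Eomes-overexpressing cells, most of it from *Hdac7*.

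The class I deacetylases did not share a direction. *Hdac1*, *Hdac2* and *Hdac3* encode catalytic subunits of nuclear co-repressor complexes, and *Hdac8* acts outside them. *Hdac1* had the highest level of all 66 genes, with an FPKM of 164.4 and 150.1 and a log2 ratio of -0.13 (-0.18 to -0.08). *Hdac2*, its close paralog, was at 37.2 and 43.7, a log2 ratio of 0.23 (0.16 to 0.31) that was 0.02 after GC centring. *Hdac1* thus exceeded *Hdac2* by 4.42-fold in FPKM in control cells and by 3.43-fold in Eomes-overexpressing cells. *Hdac3*, the enzyme of the NCoR and SMRT complexes, had an FPKM of 49.6 and 49.3. *Hdac8* was at 5.97 and 4.72, and its log2 ratio of -0.34 rests on about 225 and 183 reads, so that the interval ran from -0.62 to -0.05. The class IIb genes *Hdac6*, which encodes a tubulin deacetylase, and *Hdac10* had log2 ratios of 0.11 and 0.12, and both intervals spanned 0.

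The 15 demethylase genes summed to an FPKM of 185.1 in control cells and 185.0 in Eomes-overexpressing cells, with 10 log2 ratios above and 5 below 0 and a median of 0.05 that was -0.02 after GC centring. The highest ratios belonged to the enzymes that remove methyl groups from H3K27. *Kdm6a*, which encodes UTX and lies on chromosome X from 18162575 to 18279936, had an FPKM of 6.14 in control cells and 8.43 in Eomes-overexpressing cells. Its log2 ratio was 0.46 (0.32 to 0.60) from about 711 and 1001 reads. *Kdm6b*, which encodes JMJD3 and lies on chromosome 11 from 69398508 to 69413675, was at 6.09 and 7.97, a log2 ratio of 0.39 (0.25 to 0.52). The AT-rich *Kdm6a* had a GC-centred ratio of 0.26, and the GC-rich *Kdm6b*, whose stretch is printed above, one of 0.49. The pair was at nearly the same level within each library, *Kdm6a* holding 50.2% of their summed FPKM in control cells and 51.4% in Eomes-overexpressing cells.

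Other demethylases had smaller ratios. *Kdm1a*, the LSD1 enzyme that acts on H3K4, had the highest level of the family, at 33.4 and 31.6 (log2 ratio -0.08). Of the JmjC enzymes for the same residue, *Kdm5a* and *Kdm5b* had log2 ratios of 0.16 and 0.23. After GC centring that of *Kdm5a* changed direction, to -0.04, and that of *Kdm5b* was 0.19, while the more abundant *Kdm5c* was at 23.0 and 23.2. *Kdm1b* had a log2 ratio of 0.03. The H3K9 demethylase *Kdm3a*, a gene known to respond to hypoxia, was at 10.5 and 12.4, a log2 ratio of 0.25 (0.12 to 0.37), and its paralog *Kdm3b* was at 12.1 and 12.6. Among enzymes for H3K36 and H3K9, *Kdm4b* had the lowest log2 ratio of the demethylases, -0.23 (-0.41 to -0.04), with an FPKM of 5.76 and 4.92. After GC centring its ratio was -0.12, and the lowest was that of *Kdm2b*, -0.15. *Kdm2b*, whose product binds unmethylated CpG islands with a PRC1 complex, was at 32.1 and 27.7, a log2 ratio of -0.21 (-0.29 to -0.14). *Kdm4a* had a log2 ratio of -0.19, *Kdm2a* 0.16, *Kdm4c* 0.08 and *Kdm8* -0.20, the last 2 with intervals that spanned 0.

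Lysine methyltransferases were read in the KMT, SETD and EZH families. The 8 KMT genes summed to an FPKM of 115.6 in control cells and 125.7 in Eomes-overexpressing cells (8.72% higher), a difference that came from *Kmt5a*, since the other 7 summed to 66.1 and 65.2. The 8 SETD genes summed to 118.9 and 123.4 (3.79% higher). The median log2 ratio was 0.05 for KMT and 0.11 for SETD genes, with 6 above and 2 below 0 in each family. *Kmt5a* places the first methyl group on H4K20 and is known for its cell cycle dependence. It was at 49.6 and 60.6, a log2 ratio of 0.29 (0.21 to 0.36) and 0.30 after GC centring. *Kmt5b* and *Kmt5c*, which add further methyl groups to that residue, had log2 ratios of 0.23 and -0.21 with intervals on opposite sides of 0.

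The H3K4 methyltransferases of the COMPASS type include *Kmt2a* to *Kmt2d*, *Setd1a* and *Setd1b*, which differ in the promoters and enhancers they serve. *Kmt2c*, an enhancer enzyme, had the lowest level and the highest ratio of the KMT family, at 1.40 and 1.83, a log2 ratio of 0.39 (0.20 to 0.57). Its partner in function *Kmt2d* was at 7.84 and 8.17, a log2 ratio of 0.06 (-0.01 to 0.13). *Kmt2a* was at 9.71 and 10.0 and *Kmt2b* at 17.9 and 17.1, and both intervals spanned 0. *Setd1a* was at 22.0 and 23.4 and *Setd1b* at 5.83 and 6.38, so that *Setd1a* held 79.1% and 78.5% of their summed FPKM. *Kmt2e*, a relative that reads rather than writes the mark, was at 8.07 and 8.29.

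*Setd2*, the main enzyme for trimethylation of H3K36, lies on chromosome 9 from 110532597 to 110618633 and had the highest ratio of the SETD family. Its FPKM was 3.36 in control cells and 4.49 in Eomes-overexpressing cells, which gives a log2 ratio of 0.42 (0.26 to 0.58) that was 0.27 after GC centring. *Setd3*, the most abundant of the family and best known as an actin methyltransferase, was at 40.4 and 38.5 (log2 ratio -0.07). *Setd5* and *Setd7* had log2 ratios of 0.20 and 0.15 with intervals above 0. *Setd4* and *Setd6* were at 0.01 and -0.01.

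*Ezh2*, the H3K27 methyltransferase of proliferating cells, was at an FPKM of 66.1 in control cells and 65.6 in Eomes-overexpressing cells. Its log2 ratio was -0.01, with a counting interval of -0.08 to 0.06, and -0.11 after GC centring, which lies outside that interval. *Ezh1*, the paralog of resting cells, was at 7.13 and 6.24, a log2 ratio of -0.19 (-0.37 to -0.02). *Ezh2* exceeded *Ezh1* by 9.27-fold in control cells and by 10.5-fold in Eomes-overexpressing cells.

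The enzymes of DNA methylation were dominated by *Dnmt1*, which copies the pattern after replication. Its FPKM was 95.6 in control cells and 101.6 in Eomes-overexpressing cells, which gives a log2 ratio of 0.09 (0.05 to 0.12) that was 0.18 after GC centring, and it held 84.2% and 84.9% of the summed FPKM of the 3 DNMT genes. *Dnmt3a*, the de novo enzyme best known from effector and exhausted T cells, was at 13.0 and 12.1, a log2 ratio of -0.11 (-0.20 to -0.03). *Dnmt3b* was at 4.88 and 6.06, a log2 ratio of 0.31 (0.12 to 0.50) and 0.40 after GC centring. Of the TET genes, *Tet3* was at 4.82 and 5.23 and *Tet2* at 1.48 and 1.32, and the intervals of both ratios spanned 0. *Tet3* held 76.1% of the TET transcripts per length in control cells and 79.6% in Eomes-overexpressing cells, and *Tet1* was under the minimum, at 0.03 and 0.02.

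The 11 SMARC genes had the largest summed FPKM of the families, 405.5 in control cells and 403.8 in Eomes-overexpressing cells, and a median log2 ratio of -0.01. Of these, 8 encode subunits of the SWI/SNF (BAF) complexes. *Smarca4*, the BRG1 ATPase, was at 61.0 and 61.3 (log2 ratio 0.01, interval -0.04 to 0.05, and 0.10 after GC centring). *Smarca2*, the alternative ATPase BRM, lies on chromosome 19 from 26605050 to 26778322 and was at 3.62 and 4.85. Its log2 ratio was 0.42 (0.24 to 0.61) and 0.47 after GC centring, and its share of the ATPase pair was 5.60% in control cells and 7.33% in Eomes-overexpressing cells. The scaffold subunit *Smarcc1* was at 36.9 and 43.6, a log2 ratio of 0.24 (0.18 to 0.30), beside 35.6 and 35.4 for its paralog *Smarcc2*. *Smarcb1* had the lowest ratio of the SMARC genes, -0.21 (-0.30 to -0.13), at 69.6 and 60. After GC centring its ratio was -0.12, and the lowest was that of *Smarcad1*, -0.29.

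*Smarcd2* was the most abundant SMARC gene, at 77.1 and 69.2 (log2 ratio -0.16), and exceeded *Smarcd1*, at 24.6 and 23.6, in both libraries. *Smarce1* was at 44.6 and 46.8. Outside SWI/SNF, *Smarca5*, which encodes the ISWI ATPase SNF2H and lies on chromosome 8 from 80698507 to 80739497, was at 29.96 and 37.91. Its log2 ratio of 0.34 (0.28 to 0.40) was 0.12 after GC centring, and its transcript had the lowest GC content of the 66 genes, 40.7%. *Smarcad1*, of similar GC content (41.1%), had a log2 ratio of -0.07 that was -0.29 after the same step. *Smarcal1*, an annealing helicase, was at 5.47 and 4.88 with an interval that spanned 0.

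The 8 CHD genes summed to 190.5 in control cells and 192.2 in Eomes-overexpressing cells, with a median log2 ratio of 0.05 and a range of -0.19 to 0.31. *Chd4*, the ATPase of the NuRD complex, made up most of this at 121.6 and 119.3, a log2 ratio of -0.03 (-0.06 to 0.0041). *Chd3*, its alternative in the same complex, was at 20.8 and 22.7, a log2 ratio of 0.13. *Chd1*, which binds the H3K4 mark at active genes, had the highest ratio of the family at 8.61 and 10.7, 0.31 (0.21 to 0.42). After GC centring its ratio was 0.11, and the highest was that of *Chd3*, 0.22. *Chd7* had the lowest ratio before centring, at 16.1 and 14.1, a log2 ratio of -0.19 (-0.26 to -0.12). After GC centring its ratio and that of *Chd2* were both -0.13. *Chd8* was at 15.7 and 17.8, a log2 ratio of 0.18. *Chd2*, *Chd6* and *Chd9* had FPKM values between 1.44 and 4.43 and intervals that spanned 0.

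Within paralog sets, the gene with the most transcripts per length was the same in both libraries for all 11 sets compared. The largest shift was in the SMARCC pair, a set added after its values were seen, where *Smarcc1* went from 50.9% to 55.2% of the summed FPKM. *Hdac1* went from 63.9% to 60.6% of the class I deacetylases and *Hdac2* from 14.5% to 17.6%. For the genes *Kmt2a* to *Kmt2d* the largest share was that of *Kmt2b*, at 48.6% and 46.1%.

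**Figure D4:**
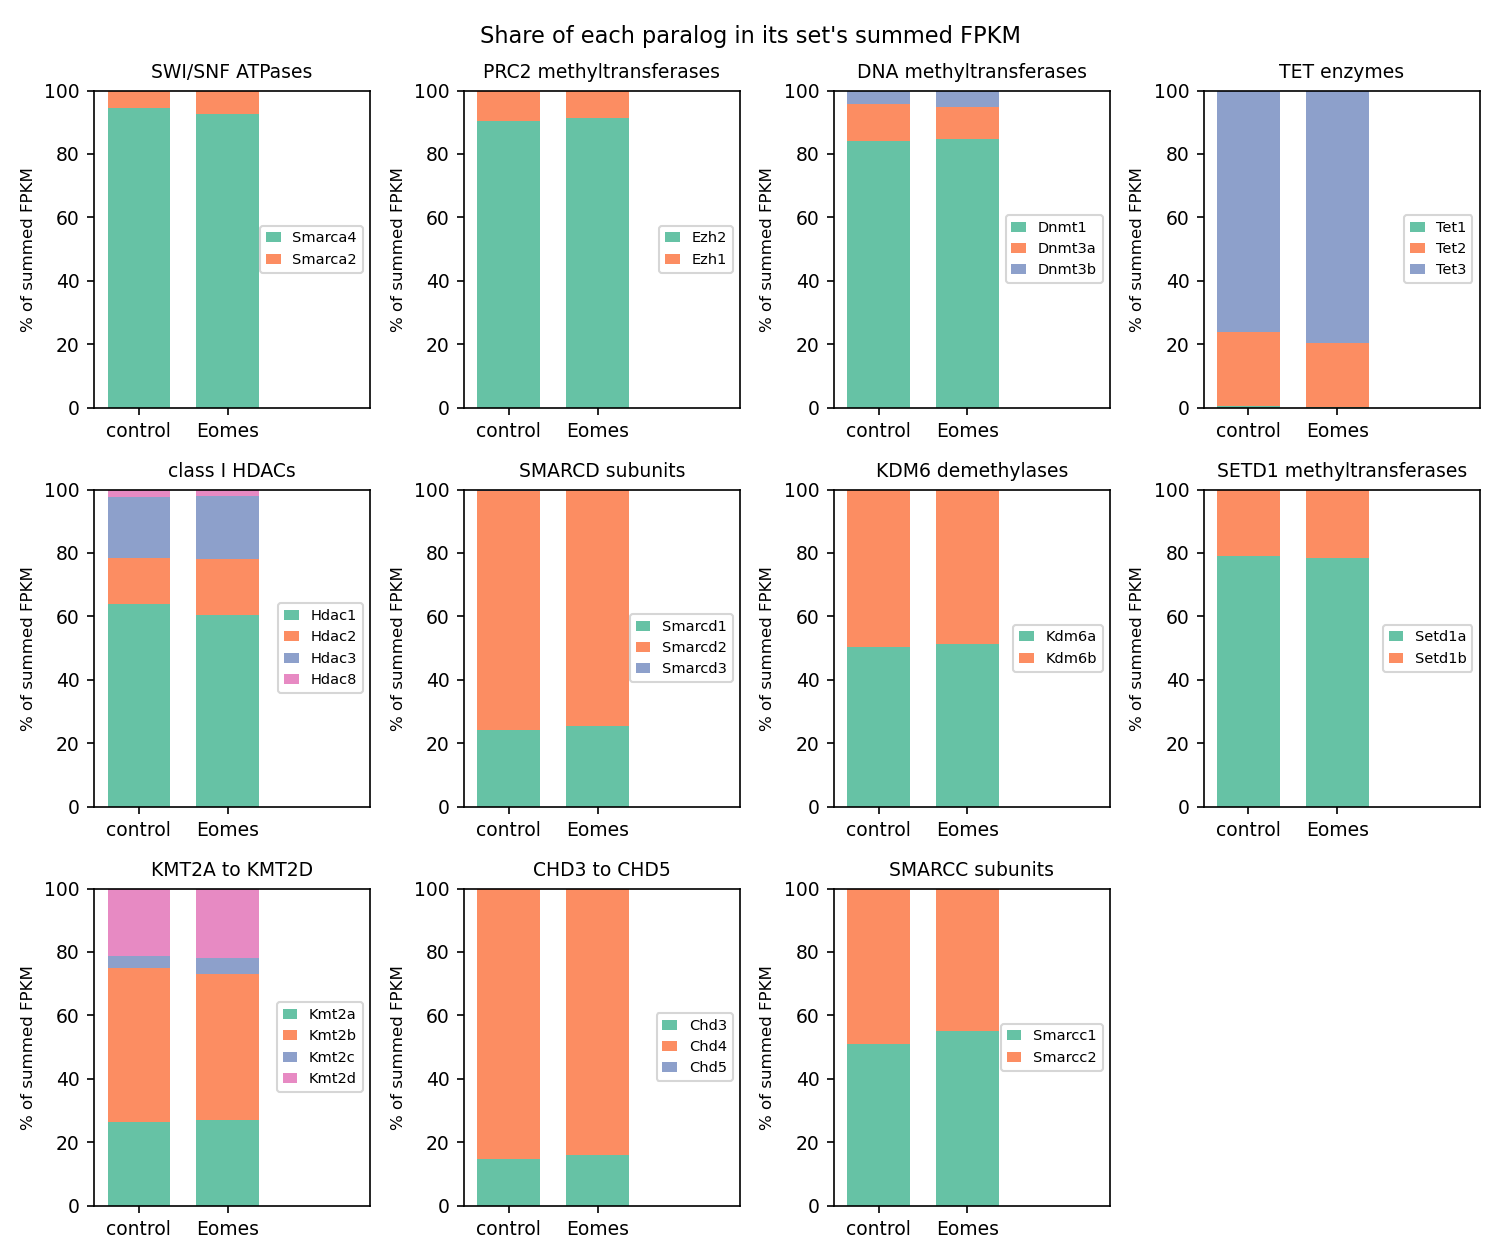
Share of each paralog in the summed FPKM of its set, in percent (y axis), for the control and the Eomes-overexpressing library (bars labelled control and Eomes), 1 panel per set. The order of the genes by share is the same in both bars of every panel, and the largest shift is 4.24 percentage points, in the SMARCC pair.

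Close to the minimum FPKM, the lowest of the 66 genes were *Tet2*, *Chd9*, *Kmt2c* and *Chd6*, at 1.32 to 1.83 in the libraries. Under it were *Kdm7a* (0.55 and 0.52), *Kdm4d* (0.53 and 0.49), *Smarcd3* (0.35 and 0.23), *Hdac11*, *Chd5*, *Tet1*, *Hdac9* and *Smarca1*, the last 5 at 0.14 or less. No gene lay within 0.05 of the 1.5-fold threshold on the log2 scale.

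Partners of these enzymes were read from 11 lists of complex members and related enzymes, which are not part of the 66 genes. Of 120 expressed genes on them, 2 were more than 1.5-fold higher (2.46% of all expressed genes were) and 0 lower (5.19%), with a median log2 ratio of 0.04. *Sirt1*, a NAD-dependent deacetylase, missed the threshold narrowly at 4.33 and 6.49 (log2 ratio 0.58, and 0.43 after GC centring), and so did *Pbrm1*, a PBAF subunit, at 5.72 and 8.49 (0.57, and 0.35). The higher genes were *Jarid2*, which encodes a targeting subunit of PRC2, and *Hells*, which encodes a remodeler needed for DNA methylation. *Jarid2* was at 3.54 and 5.49, a log2 ratio of 0.63 (0.45 to 0.81) and 0.61 after GC centring. *Hells* was at 15.7 and 23.9, a log2 ratio of 0.61 that was 0.33 after GC centring, at a GC content of 37.7%. Of the 9 PRC2 core and partner genes, 7 had log2 ratios above 0, beside 4887 of the 9925 expressed genes. *Phf1* and *Phf19* were below 0, at -0.29 and -0.41, and stayed below it after GC centring. *Rbbp4* and *Aebp2* were above 0 but fell to -0.12 and -0.17 after GC centring. *Suz12*, a core subunit without which EZH2 is unstable, was at 20.6 and 29.4 (log2 ratio 0.51, and 0.29 after GC centring). *Eed*, another core subunit, had a log2 ratio of 0.29, and 0.25 after GC centring. The median of that list was 0.13, and 0.03 after GC centring. The 12 histone acetyltransferases, the counterparts of the deacetylases, had a median log2 ratio of 0.06 and ran from -0.30 to 0.29. For the other lists the medians were -0.04 for sirtuins, 0.0013 for PRC1, 0.06 for COMPASS partners and 0.04 for other lysine methyltransferases. They were -0.0057 for arginine methyltransferases, 0.05 for BAF and PBAF partners and -0.0067 for NuRD and co-repressor partners. For DNA methylation partners the median was 0.04, and for a list of other remodelers it was 0.09. That list holds *Hells*, *Atrx* and *Chd1l* beside 5 genes of the INO80, SRCAP and TIP60 complexes, whose own median was 0.02.

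Promoter windows of RefSeq (GRCm38.p6, 250 bases before to 50 after a start) were present for 50 of the 66 genes, 70 windows in all. The T-box letters TCACACCT, or AGGTGTGA on the other strand, were in 0 of these windows and in 1.28% of 32851 windows in the table. The shorter TCACACC or GGTGTGA, which the longer motif contains, was likewise in 0 of 70 and in 3.98% of all windows. The counts among 70 windows are a description and were not tested. Binding data were not analysed here. The study reports that most Eomes-binding sites lay in introns or intergenic regions, mostly distant from transcription start sites. Windows this close to a start cannot show such sites, so nothing is concluded on binding.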

How the data were processed

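RNA of control and Eomes-overexpressing OT-I cells was sequenced on an Illumina HiSeq instrument, 1 library per condition. Per the study's methods, SOAPnuke filtered the reads, HISAT and Bowtie2 mapped them to mm10, and RSEM computed expression. The values deposited by the authors are FPKM per gene symbol, which the methods call RPKM, and no normalization between libraries is named. A few symbols read as dates and were dropped (20 and 19 per library).

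For the ratios, a floor of 0.01 stood in for lower or missing values. Python (3.11.15) was used with pandas (2.3.3), numpy (2.4.6), scipy (1.17.1) and matplotlib (3.10.9). The 1.5-fold threshold follows the study. The enzyme genes, gene lists and alternatives were chosen with earlier results of these data known, and the functional classes within families were set after the values were seen. Every gene was named within its family, with values for those beyond 1.5-fold, at the ends of a family's order, most abundant, or in a paralog set. Values of further genes, such as those beyond the lower bound, were added after they were seen, as were the KMT sums without *Kmt5a* and the split of the remodeler list.

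Depth was estimated as the number of reads at which FPKM times length falls closest to whole numbers, over 315 and 332 single-transcript genes (500 to 2500 bases, FPKM up to 0.6). The height of this fit was 0.41 for the control library, beside 0.28 at the highest point away from the peak. For the Eomes-overexpressing library it was 0.37 beside 0.24. The peaks were thus not sharp, and all approximated reads and counting intervals rest on these depths. Lengths and GC content came from the longest protein-coding GENCODE vM21 transcript, or from the longest of any type where none was coding. Such a transcript was found for 99.7% of expressed genes. Positions are those of the whole GENCODE gene on mm10. RSEM's own lengths were not used, so approximated reads shift with the transcript chosen. GC centring subtracted the median of expressed genes in 20 bins. Alternatives were other pseudocounts, minimum levels, thresholds and scalings. The depth estimate, the 1.5-fold calls and the coverage of the counting intervals were tested on simulated data. Those data held counting error alone, had no GC trend and used the reference lengths. GC centring and the other steps were not simulated.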

Additional observations from a re-analysis of the deposited data

How the results depend on the processing

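No paired analysis was possible because each condition has a single library. The count of 0 genes beyond 1.5-fold in either direction was the same with GC centring. Scaling to TPM, to the median or by a trimmed mean gave 0 as well. These scalings shift all ratios alike, by 0.03 or less in size. That was too little to carry any gene past 0.58, the closest being *Hdac5* at -0.51. A pseudocount of 0.1 or 1, a minimum FPKM of 5 and a 2-fold threshold also gave 0. That outcome was fixed, since they shrink the ratios, keep part of the same genes or are stricter. Without a minimum FPKM, 2 genes were higher and 2 lower, 2 of them in the HDAC and 2 in the SMARC family, all at an FPKM of 0.35 or less. *Chd5* and *Tet1* lay at 1.5-fold itself and were not counted. At the planned lower threshold (0.32 on the log2 scale), 6 were higher and 3 lower, 3 in HDAC, 2 in KDM, 1 in KMT, 1 in SETD and 2 in SMARC. At that threshold after GC centring, added after seeing the data, 4 were higher and 2 lower, 2 in HDAC, 1 in KDM, 1 in KMT, 1 in DNMT and 1 in SMARC. GC centring moved 18 of 66 log2 ratios out of their counting intervals and changed the sign of 10, by at most 0.22. Scaling to TPM moved 1 ratio out of its interval and changed the sign of 5. The other scalings and pseudocounts moved none out. The trimmed mean was -0.00011 and the TPM shift -0.03 on the log2 scale. Depth limits genes such as *Setd4*, whose interval of -0.36 to 0.38 rests on about 122 and 126 reads. A single library per condition limits every ratio.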
